A study of Oryctolagus cuniculus with 4 samples.

Results

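ABC transporters were examined in single-cell RNA sequencing libraries of rabbit ear hypertrophic scar (HS). They are a family of membrane proteins that use ATP to move lipids, drugs, peptides and other molecules across membranes. Genes were taken by symbol from the deposited table, as rows named ABC followed by a subfamily letter from A to G and a number. This gave 29 of 13913 rows, and 2 of these, ABCA8 and ABCA12, were left out, so that 27 genes were followed. The HS group held 2 libraries of wild-type (WT) scar tissue without treatment. The drug-loaded MNs group held 2 libraries of WT scar tissue that had received drug-loaded microneedles (MNs), patches whose tips stay in the skin and release 5-fluorouracil acetic acid from a prodrug bound in them, weekly for 3 weeks. Tissue was collected a week after the last patch, and the epidermis and dermis of the ventral side were taken apart into cells, with red blood cells lysed. The rabbits were female, and the labels give no age, though the study gives one for the rabbits as purchased. The study describes the libraries of a group as independent biological samples, so the p-values rest on 2 such samples a group. In the tests the spread of each gene was moderated by that of all genes tested, so it is not the spread between these samples alone. No library with needles free of drug was analysed here, so the drug and the needles cannot be told apart.

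The family is divided into subfamilies by sequence. Many A and G members move sterols and phospholipids, B and C members include the efflux pumps first found in drug-resistant tumour cells as well as mitochondrial transporters and regulatory subunits of potassium channels, and D members sit in peroxisomes and lysosomes. E and F members lack a membrane part and act on ribosomes and translation. In skin, ABC genes are best known for lipid delivery to the epidermal barrier and for disorders of pigment, hair and elastic tissue.

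The table held 1 value per gene and library. Each library was brought to the same sum of 1000000, and a unit here means 1 part in that sum. Whether gene length was corrected for was not stated, so levels are compared between libraries for the same gene and not between genes. The depth was unknown, and no counting interval could be given. In these tissue-wide values, fewer cells of a type and less RNA per cell cannot be told apart. HS replicate 1 stood apart on the first principal component of all tested genes, at 37.2 against -18.3 to -0.95 in the other libraries. The share of mitochondrially encoded genes was 2.75% to 2.80% over the HS libraries, against 4.37% to 4.58% over the drug-loaded MNs libraries. Skin markers were present: 7 fibroblast, 5 basal keratinocyte and 5 suprabasal keratinocyte genes were found in the table, and each passed the filter on low values.

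Of the 27 ABC genes, 19 had a mean of at least 1 unit and were tested. In limma, 0 of the 19 passed an adjusted p of 0.05, where 0.0428% of the 9348 genes tested did, and the lowest adjusted p among them was 0.352. At an unadjusted p under 0.05 there was 1 gene, ABCA6, higher in drug-loaded MNs. That is 5.26% of the 19, against 8.65% of all genes in either direction, 7.26% in the higher and 1.39% in the lower direction. Groups were separated without overlap in 7 of the 19, of which 5 were higher and 2 lower in drug-loaded MNs. This share of 36.8% was close to the 37.8% of all genes, of which 26.6% were higher and 11.2% lower. The log2 fold change was above 0 in 13 of the 19, or 68.4%, where it was above 0 in 64.6% of all genes. The median log2 fold change of the 19 genes was 0.06, and that of all genes was 0.12. Against that shift, 7 of the 19 lay above the median of all genes. The gap between the HS libraries was larger on the log2 scale than the gap between the group means in 14 of the 19, or 73.7%, where this held for 61.9% of all genes. Of the 19, 11 were higher in HS replicate 2 than in HS replicate 1, which was so for 59.7% of all genes. Summed over the 27 genes, ABC expression was 583 and 723 units in HS and 749 and 750.1 units in drug-loaded MNs. The 3 libraries other than HS replicate 1 lay close together. Members outside the naming rule given in the methods, ABCA1, ABCB8, ABCB10 and the genes under the filter other than ABCC2, were added after their values were seen.

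**Figure D1:**
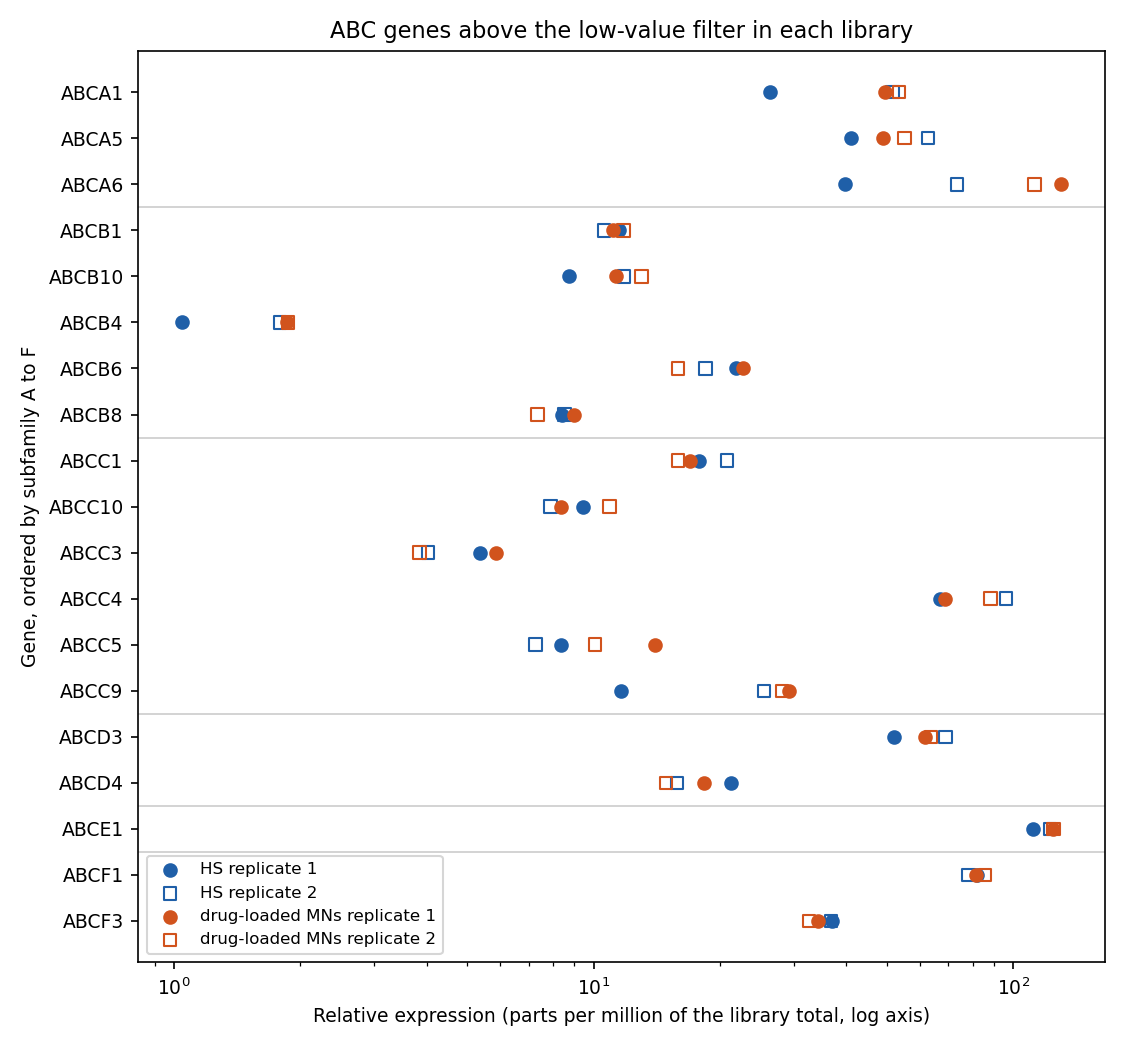
Relative expression of the 19 tested ABC genes in each of the 4 libraries, in parts per 1000000 of the library total on a log axis, with genes ordered by subfamily, HS in blue, drug-loaded MNs in orange, and replicates 1 and 2 as filled circles and open squares. ABCA6 stands at 39.6 and 73.5 units in HS and at 129.8 and 112 units in drug-loaded MNs.

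Subfamily A held the largest difference among the 19. ABCA6 belongs to a cluster of related lipid transporter genes, and in the RefSeq list of the rabbit assembly mOryCun1.1 its nearest ABC genes are ABCA5 and ABCA9. Its expression was 39.6 and 73.5 units in the HS libraries and 129.8 and 112 units in the drug-loaded MNs libraries. Both drug-loaded MNs libraries were above both HS libraries, and the HS libraries differed from each other by 0.88 on the log2 scale. Group means of ABCA6 were 56.6 ± 24.0 units for HS and 121 ± 12.4 units for drug-loaded MNs (SD, n = 2). Its log2 fold change was 1.15 (95% interval 0.41 to 1.88, limma unadjusted p 0.00738, adjusted p 0.352). It was 0.71 without HS replicate 1 and 1.58 without HS replicate 2.

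ABCA5, the neighbour of ABCA6, is a lysosome-associated transporter tied to hair overgrowth when lost. It stood at 41.1 and 62.5 units in HS and at 48.8 and 55.0 units in drug-loaded MNs, so that the drug-loaded MNs libraries lay inside the range of the HS libraries. Its log2 fold change was 0.03 (95% interval -0.60 to 0.66), and it was -0.11 under median ratio scaling. The log2 ratio of ABCA6 to ABCA5, which does not depend on the scaling of a library, was -0.05 and 0.23 in the HS libraries, against 1.41 and 1.03 in the drug-loaded MNs libraries. The ratio was thus 1.13 higher in drug-loaded MNs on the log2 scale, and the groups did not overlap in it. ABCA6 had been taken up as the largest difference among the 19, while ABCA5 hardly differed. The ratio therefore mostly restates the ABCA6 values and is not separate evidence of a difference.

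Fibroblast markers were higher in the same libraries as ABCA6. All 7 of the markers found in the table were higher in drug-loaded MNs, each at an unadjusted p under 0.05 and with 0 past an adjusted p of 0.05 in limma. Of all genes, 7.26% were higher at that unadjusted p. None of the 7 markers was listed at 0 in every library. Their summed level was 22585 to 23063 units in HS and 44785 to 48706 units in drug-loaded MNs. COL1A2 alone held 13738 and 12946 units in HS and 22256 and 26648 units in drug-loaded MNs. Set against the mean log2 level of these 7 markers in the same library, ABCA6 stood at -4.47 and -3.74 in HS and at -3.86 and -4.10 in drug-loaded MNs. On this measure the groups overlapped, with a difference of 0.13 in their means. ABCA5 on the same measure stood at -4.41 and -3.97 in HS and at -5.25 and -5.12 in drug-loaded MNs. On this measure ABCA5 was lower in drug-loaded MNs, while ABCA6 was not separated. Since all 7 markers were higher, a gene with little difference of its own, such as ABCA5 (log2 fold change 0.03), must fall here. How many of all genes would do so was not counted. In all, 5 pairs of an ABC gene and a marker list were compared, and these pairs were chosen after the values were seen.

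ABCA1 exports cholesterol and phospholipid from cells to apolipoprotein A-I. Its expression was 26.3 units in HS replicate 1 and 51.5 units in HS replicate 2. In drug-loaded MNs it was 49.5 and 53.4 units, close to HS replicate 2. The log2 fold change was 0.47 (95% interval -0.30 to 1.24, limma adjusted p 0.780), and it was -0.0028 without HS replicate 1 and 0.94 without HS replicate 2. HS replicate 1 alone stood low. Macrophage markers, which mark a cell type known for ABCA1, were higher in drug-loaded MNs in all 7 genes found. In limma each of the 7 reached an unadjusted p under 0.05, and 0 passed an adjusted p of 0.05. Of all genes, 64.6% had a log2 fold change above 0, and 7.26% were higher at that unadjusted p. The summed levels of the macrophage markers were 119.5 to 129.9 units in HS and 283 to 286 units in drug-loaded MNs. Against the mean log2 level of these markers, ABCA1 stood at 1.51 and 2.19 in HS and at 0.97 and 1.07 in drug-loaded MNs. Against the fibroblast markers it stood at -5.04 and -4.25 in HS and at -5.23 and -5.16 in drug-loaded MNs. The means on these 2 measures differed by -0.83 and -0.55, although ABCA1 itself was not lower in drug-loaded MNs. Every marker of both lists was higher there, so any gene that differed less than the markers gives a negative value. How many of all genes would do so was not counted. The part of either cell type in the ABCA1 values was not tested.

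**Figure D2:**
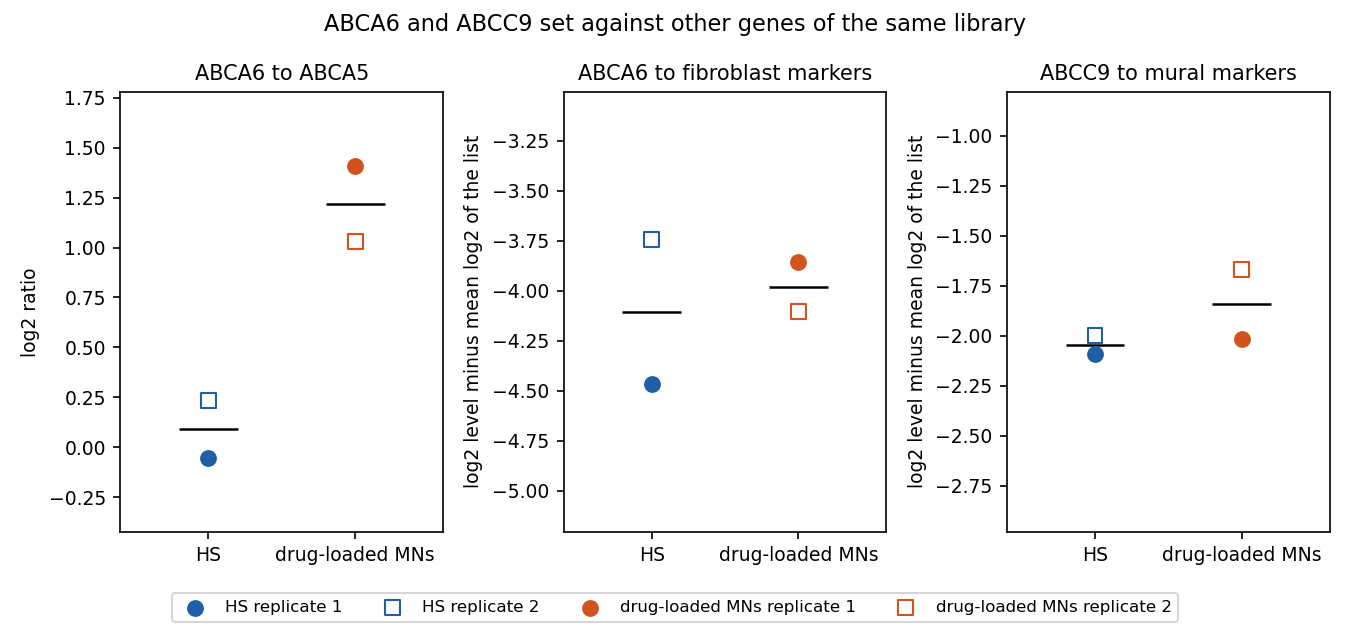
ABCA6 and ABCC9 set against other genes of the same library, with a point per library and a black bar at the mean of each group of 2. The left panel gives the log2 ratio of ABCA6 to ABCA5, with a gap of 1.13 between the groups. The other panels give the log2 level of ABCA6 minus the mean log2 level of 7 fibroblast markers, and of ABCC9 minus that of 4 mural markers, and in both the groups overlap. Each vertical axis spans the same range.

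The drug efflux members are described apart because the patches released a fluoropyrimidine. 8 of 10 listed genes were in the table, and 7 were tested. ABCC11 and ABCG2 were not analysed here. Their median log2 fold change was 0.05, with 5 above 0 and 2 below, and 0 passed in limma at an adjusted p of 0.05 or at an unadjusted p under 0.05. With median ratio scaling this median was -0.083, and with quantile normalization it was -0.12. Summed over the 8 genes, expression was 122 and 149 units in HS and 128 and 143 units in drug-loaded MNs. The range of the drug-loaded MNs libraries thus lay inside that of the HS libraries. This sum mostly follows ABCC4, which alone held 67.0 and 96.1 units in HS and 68.8 and 88.2 units in drug-loaded MNs.

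ABCC5 exports cyclic nucleotides and nucleotide analogues, and phosphorylated fluoropyrimidines are among its known substrates. It stood at 8.36 and 7.27 units in HS and at 14.0 and 10.1 units in drug-loaded MNs. Both drug-loaded MNs libraries were above both HS libraries. The log2 fold change was 0.55 (95% interval -0.12 to 1.23, limma unadjusted p 0.0959, adjusted p 0.700), and the interval includes 0. It ranged from 0.33 to 0.77 with 1 library left out and stayed positive under every alternative scaling or normalization. ABCC4, which carries cyclic nucleotides, prostaglandins and nucleotide analogues, stood at 67.0 and 96.1 units in HS and at 68.8 and 88.2 units in drug-loaded MNs. The groups overlapped, and the log2 fold change was -0.04 (95% interval -0.66 to 0.58).

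ABCB1 encodes P-glycoprotein, the multidrug pump that gave the field its start. Its expression was 11.5 and 10.6 units in HS and 11.1 and 11.8 units in drug-loaded MNs, with overlapping groups and little spread. The log2 fold change was 0.05 (95% interval -0.56 to 0.66), and it was -0.083 under median ratio scaling. Its RefSeq neighbour ABCB4, a phosphatidylcholine transporter of the bile canaliculus, was near the filter. It stood at 1.05 and 1.79 units in HS and at 1.86 and 1.87 units in drug-loaded MNs. The groups did not overlap, with HS replicate 1 low, and the log2 fold change was 0.26 (95% interval -0.47 to 0.997). ABCB1 and ABCB4 are close in sequence, and how the counting treated reads that match both was not stated.

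ABCC1 exports glutathione conjugates and leukotriene C4. It stood at 17.9 and 20.8 units in HS and at 17.0 and 15.9 units in drug-loaded MNs. Both drug-loaded MNs libraries were below both HS libraries. The log2 fold change was -0.22 (95% interval -0.81 to 0.37, limma adjusted p 0.877), and its sign held under every alternative scaling or normalization. ABCC3, an exporter of glucuronides and other organic anions, stood at 5.35 and 4.03 units in HS and at 5.87 and 3.85 units in drug-loaded MNs. ABCC10, which has been tied to taxane resistance, stood at 9.46 and 7.90 units in HS and at 8.39 and 10.9 units in drug-loaded MNs. The groups overlapped in both genes, and the log2 fold changes were 0.03 (95% interval -0.71 to 0.77) and 0.13 (95% interval -0.53 to 0.80). ABCC2, an exporter of conjugates in liver and kidney, was under the filter, at 0.979 and 0.922 units in HS and 1.06 and 0.741 units in drug-loaded MNs. It lay just under the minimum mean of 1 unit, and its groups overlapped.

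**Figure D3:**
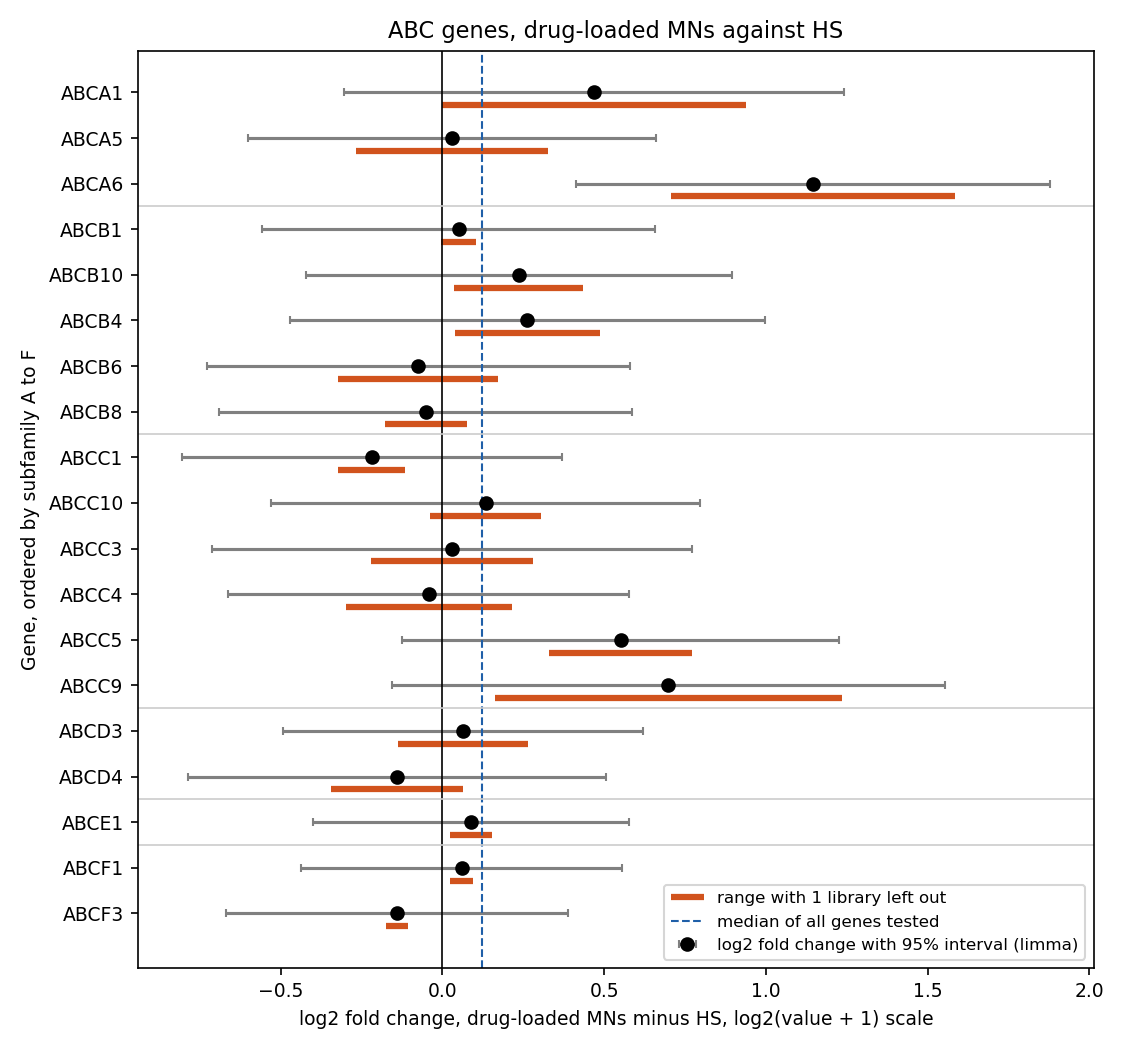
Log2 fold change of the 19 tested ABC genes, drug-loaded MNs minus HS, on the log2(value + 1) scale. Black points with grey bars are limma estimates with 95% intervals, orange bars span the values with 1 library left out, and the dashed line is the median of all genes tested, at 0.12. Of the 19 genes, ABCA6 alone has an interval that does not include 0, from 0.41 to 1.88.

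The other tested B members are transporters of mitochondria and lysosomes. ABCB6, a porphyrin transporter tied to a pigment disorder of the skin, stood at 21.9 and 18.5 units in HS and at 22.7 and 15.9 units in drug-loaded MNs. ABCB8, of the inner mitochondrial membrane, stood at 8.40 and 8.52 units in HS and at 8.96 and 7.36 units in drug-loaded MNs. ABCB10, which supports heme synthesis, stood at 8.72 and 11.8 units in HS and at 11.3 and 13.0 units in drug-loaded MNs. The groups overlapped in all 3 genes, with log2 fold changes of -0.08, -0.05 and 0.24. Of 18 listed partner genes of heme and iron-sulphur cluster synthesis, 11 were found by symbol and tested. In limma 0 of the 11 reached an unadjusted p under 0.05, 4 were above 0 and 7 below, and the median was -0.02. The smallest p values of that list belonged to TMEM14C, a porphyrin carrier (log2 fold change 0.39), HMOX1, which breaks down heme (-0.30), and FECH, the last enzyme of heme synthesis (0.25).

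ABCC9 is the regulatory subunit SUR2 of ATP-sensitive potassium channels, which it forms with KCNJ8 in vessel walls. It stood at 11.6 units in HS replicate 1 and 25.5 units in HS replicate 2. In drug-loaded MNs it stood at 29.2 and 28.1 units, above both. The log2 fold change was 0.70 (95% interval -0.16 to 1.55, limma unadjusted p 0.0954, adjusted p 0.700), which is less than the 1.07 between the HS libraries. It was 0.16 without HS replicate 1 and 1.23 without HS replicate 2. The partner KCNJ8 stood at 8.74 and 13.4 units in HS and at 15.7 and 11.6 units in drug-loaded MNs, with overlapping groups. Of 8 mural markers, 4 were in the table (RGS5, ACTA2, MYH11 and KCNJ8). In limma 1 of the 4, ACTA2, was higher at an unadjusted p under 0.05, where 7.26% of all genes were. Of the 4, 0 passed an adjusted p of 0.05, and the groups overlapped in the 3 other than ACTA2. The summed level of the 4 mural markers was 315 and 640 units in HS and 768 and 586 units in drug-loaded MNs. The lowest sum belonged to HS replicate 1, as for ABCC9, but the sums of the groups overlapped, while ABCC9 was higher in both drug-loaded MNs libraries. Set against the mean log2 level of these markers, ABCC9 stood at -2.09 and -1.9997 in HS and at -2.02 and -1.67 in drug-loaded MNs, with a difference of 0.20 and overlapping groups.

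Among D members, ABCD3 brings branched and long-chain acids into peroxisomes and ABCD4 takes part in cobalamin export from lysosomes. ABCD3 stood at 52.0 and 68.9 units in HS and at 61.7 and 63.6 units in drug-loaded MNs. ABCD4 stood at 21.2 and 15.8 units in HS and at 18.4 and 14.9 units in drug-loaded MNs. The groups overlapped in both, and the log2 fold changes were 0.06 (95% interval -0.49 to 0.62) and -0.14 (95% interval -0.79 to 0.51). Of 16 listed genes of peroxisomal oxidation and cobalamin handling, 12 were found by symbol and tested. In limma 0 of the 12 reached an unadjusted p under 0.05, 8 were above 0 and 4 below. The smallest p values were those of PEX3 (log2 fold change -0.46) and PEX5 (-0.32), which bring proteins to peroxisomes, and of HACL1 (0.46), an enzyme of branched-chain oxidation.

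The E and F members act on ribosomes, and libraries of a group differed by at most 0.13 on the log2 scale in each of the 3 genes. ABCE1 splits ribosomes for reuse after termination. It stood at 112 and 122 units in HS and at 124 units in both drug-loaded MNs libraries. The groups did not overlap, but HS replicate 2 lay near the drug-loaded MNs libraries, and the log2 fold change of 0.09 (95% interval -0.40 to 0.58) was -0.054 under median ratio scaling. ABCF1, a factor of translation initiation, stood at 82.1 and 78.2 units in HS and at 81.5 and 85.6 units in drug-loaded MNs, with overlapping groups and a log2 fold change of 0.06 (95% interval -0.44 to 0.55). ABCF3 stood at 36.9 and 36.8 units in HS and at 34.2 and 32.6 units in drug-loaded MNs. Both drug-loaded MNs libraries were below both HS libraries. The log2 fold change of -0.14 (95% interval -0.67 to 0.39, limma adjusted p 0.911) kept its sign under every alternative scaling or normalization. Of 15 listed partner genes of ribosome recycling and the translation stress response, 10 were found by symbol and tested. In limma 0 of the 10 reached an unadjusted p under 0.05, 5 were above 0 and 5 below. GCN1 (log2 fold change 0.26), PELO (-0.24) and HBS1L (0.27) had the smallest p values. GCN1 senses stalled ribosomes, and PELO and HBS1L rescue them.

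The 8 genes under the filter were ABCA4, ABCB5, ABCB11, ABCC2, ABCC6, ABCD2, ABCG5 and ABCG8. ABCG8 was listed at 0 in all 4 libraries, and its partner ABCG5, with which it forms a sterol exporter of liver and gut, was at 0.0279 and 0.0144 units in HS and listed at 0 in both drug-loaded MNs libraries. No G member was therefore tested. ABCD2, a peroxisomal transporter of very long-chain fatty acids, stood at 0.0331 and 0.00814 units in HS and at 0.495 and 0.289 units in drug-loaded MNs. ABCB11, the bile salt export pump, was listed at 0 in HS replicate 1, stood at 0.0190 in HS replicate 2, and was at 0.176 and 0.226 units in drug-loaded MNs. In both genes the drug-loaded MNs libraries were above the HS libraries. With no filter on low values, limma gave unadjusted p values of 0.00513 for ABCD2 and 0.00888 for ABCB11, and an adjusted p of 0.484 for each. How many cells or reads lie behind these levels was unknown.

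The other low genes showed no order that held in both libraries of a group, or too little signal to read. ABCA4, a retinoid transporter of the retina, was listed at 0 and at 0.0280 units in HS and stood at 0.243 and 0.0118 units in drug-loaded MNs. ABCC6, whose loss causes mineralization of elastic tissue, was at 0.0874 units in HS replicate 1 and 0.0430 units in drug-loaded MNs replicate 2, and listed at 0 in the other libraries. ABCB5, known from limbal stem cells, was listed at 0 in both HS libraries and at 0.0095 and 0.0282 units in drug-loaded MNs.

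**Figure D4:**
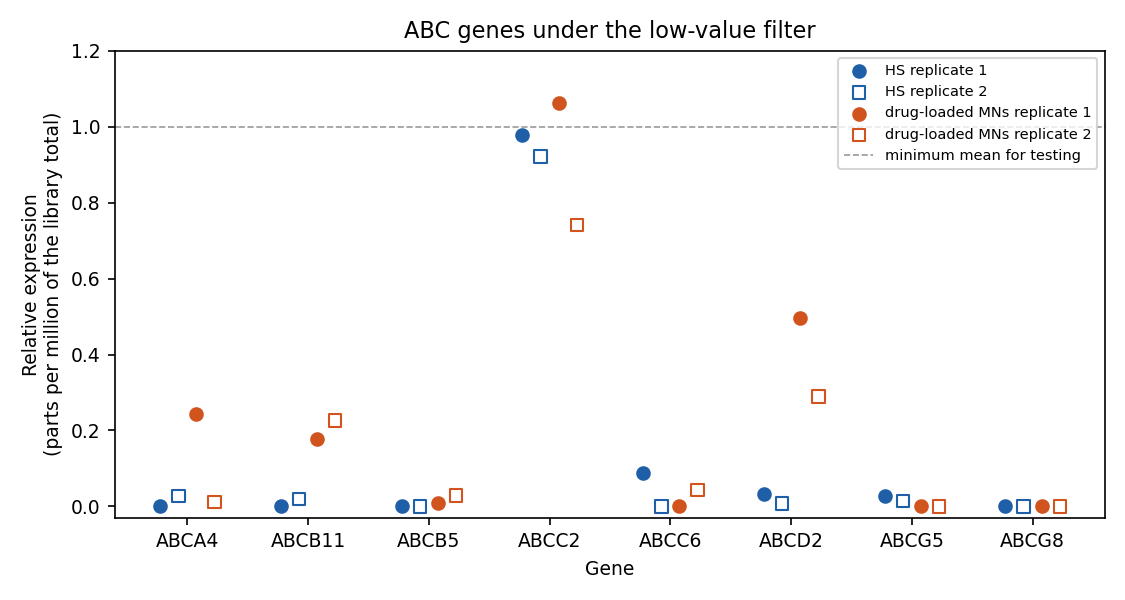
Relative expression of the 8 ABC genes under the low-value filter in each library, in parts per 1000000 of the library total on a linear axis, with the minimum mean of 1 unit as a dashed line. ABCD2 and ABCB11 are higher in both drug-loaded MNs libraries, at 0.176 to 0.495 units against 0.0331 units or less in HS.

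Sterol handling was followed through a list of sensors and partners of the A and G members. Of 18 listed genes, 10 were found by symbol and 9 were tested. Those not found included APOE, NR1H2, RXRA, SREBF1, SREBF2 and SCARB1. Of the 9 tested genes, 7 were above 0 and 2 below, with a median log2 fold change of 0.19. In limma 2 reached an unadjusted p under 0.05, both higher in drug-loaded MNs, and 0 passed an adjusted p of 0.05. This is 22.2% of the 9, where 7.26% of all genes were higher at that p. LIPA, the lysosomal acid lipase that frees cholesterol from its esters, stood at 23.3 and 40.1 units in HS and at 75.2 and 69.9 units in drug-loaded MNs (log2 fold change 1.22). NCEH1, an esterase that does the same outside lysosomes, stood at 5.27 and 3.95 units in HS and at 8.12 and 9.70 units in drug-loaded MNs (log2 fold change 0.83). In both genes the groups did not overlap, as in 26.6% of all genes in that direction. SOAT1, which stores cholesterol as esters, had a log2 fold change of 0.79 (95% interval -0.10 to 1.68). NR1H3, the sterol sensor LXR alpha that turns on ABCA1, was named after its values were seen. It stood at 9.68 and 14.6 units in HS and at 13.7 and 14.6 units in drug-loaded MNs. The groups of NR1H3 overlapped, and its log2 fold change was 0.23 (95% interval -0.45 to 0.91). Like ABCA1, NR1H3 was lowest in HS replicate 1. Of all genes, 59.7% were higher in HS replicate 2 than in HS replicate 1, and how many were lowest in HS replicate 1 was not counted. A link between NR1H3 and ABCA1 was not tested. The macrophage markers described above were higher in the same libraries as LIPA and NCEH1, and their part in these values was not tested.

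Regulators and anchors of the efflux pumps gave no gene at an unadjusted p under 0.05 in limma, with 7 of 11 above 0, 4 below and a median of 0.07. Of 18 listed genes, 13 were found by symbol and 11 were tested. AHR, KEAP1, PPARA, FOXO1 and NHERF1 were not found. The smallest p values belonged to EZR, a linker of membrane proteins to actin, MVP, the major vault protein, and NFE2L2, the oxidative stress regulator NRF2 that is known to control ABCC genes. NFE2L2 stood at 189.9 and 220.3 units in HS and at 160.1 and 168 units in drug-loaded MNs. EZR stood at 491 and 546 units in HS and at 317 and 412 units in drug-loaded MNs. In both genes the drug-loaded MNs libraries were below the HS libraries, with log2 fold changes of -0.32 (95% interval -0.81 to 0.18) for NFE2L2 and -0.52 (95% interval -1.06 to 0.02) for EZR. MVP had a log2 fold change of -0.38 (95% interval -0.95 to 0.19).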

How the data were processed

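Single-cell 3' libraries (10x Genomics) of rabbit ear scar tissue went through Cell Ranger in the authors' hands (2.1.1 in the submitters' processing notes, which name the mouse build mm10, while the table carries rabbit Ensembl identifiers) and Seurat. A batch correction is mentioned, and whether these values passed through it was not stated. The deposited values are a score: each of 4 columns summed to 10000, although the table is named for FPKM. How cells were combined and doublets treated was not stated. Only 18.5% to 21.7% of low values lay within 0.1 of whole steps, so reads could not be recovered and depth stayed unknown.

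Values were rescaled to 1000000 per library. Genes with a mean of at least 1 were kept (9348), and a linear model with moderated, trended variances was fitted to log2(value + 1) with limma 3.58.1 in R 4.3.3, with 2 libraries per group and no covariate. P-values were two-sided and adjusted by the Benjamini-Hochberg method over all genes tested. An exact permutation test could not reach a p under 0.333. Fold changes on this scale understate the change of low genes.

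Values per library were given for drug efflux members and, in each subfamily, for members at an unadjusted p under 0.05, with the highest or lowest fold change or with the highest mean. Of each partner list, up to 3 genes with the smallest p were named. The members and lists were chosen with earlier results of these data known. The 14 alternatives covered scaling, pseudocount, filter, variance prior, a replicate block and leaving out each library.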

Additional observations from a re-analysis of the deposited data

How the results depend on the processing

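All alternatives on the normalized values were run, and count tests were not, because whole reads could not be recovered. With the replicate number as a block, 1 ABC gene passed an adjusted p of 0.05 in place of 0 (ABCA6, log2 fold change 1.15, limma adjusted p 0.00726), and 2 reached an unadjusted p under 0.05, with ABCC9 as the other. Same-numbered libraries shared only a number: the correlation of their residuals around each group's mean was 0.22 across genes, 2 pairs cannot establish a pairing, and the block left 1 residual degree of freedom. The block changed no other call among the ABC genes. How many of all genes passed under the block or the other alternatives was not counted. The counts of ABC genes under them therefore stand without a background share. The count at an unadjusted p under 0.05 was 3 with no filter on low values (ABCA6, ABCB11 and ABCD2) and 1 to 3 with 1 library left out, the 3 without HS replicate 2 being ABCA6, ABCC9 and ABCA1. With 1 library left out, 0 passed the adjusted threshold, and the lone library of a group is then assumed to vary like the other group. The median of the drug efflux members (0.05) was -0.083 with median ratio scaling and -0.12 with quantile normalization, where the median of all genes was -0.01 and -0.02 in place of 0.12, and it ranged from 0.011 to 0.13 with 1 library left out. The median of all 19 tested genes (0.06) ranged from -0.083 to 0.15 over the alternatives.

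The sign held under every alternative run for 7 of the 19 tested genes, ABCA6, ABCB4, ABCB10, ABCC1, ABCC5, ABCC9 and ABCF3, and turned in at least 1 alternative for the other 12, none of which passed an adjusted p of 0.05 under any. The filter, variance prior and block alternatives left each fold change as it was and could not turn a sign. Where the groups did not overlap, leaving out 1 library could not turn it either. How many of all genes kept their sign was not counted, so the 7 of 19 stands without a background share. Under median ratio scaling log2 fold changes were -0.11 for ABCA5, -0.083 for ABCB1, -0.093 for ABCC3, -0.078 for ABCD3, -0.054 for ABCE1 and -0.084 for ABCF1. Under quantile normalization they were -0.064 for ABCA5, -0.15 for ABCB1, -0.092 for ABCC10, -0.24 for ABCC3, -0.030 for ABCD3 and -0.0018 for ABCF1. With 1 library left out they ranged from -0.0028 to 0.94 for ABCA1, -0.27 to 0.33 for ABCA5, -0.0049 to 0.10 for ABCB1, -0.32 to 0.17 for ABCB6, -0.18 to 0.075 for ABCB8, -0.040 to 0.31 for ABCC10, -0.22 to 0.28 for ABCC3, -0.30 to 0.21 for ABCC4, -0.14 to 0.26 for ABCD3 and -0.34 to 0.063 for ABCD4. The cause was not tested. A minimum mean of 5 left ABCB4 and ABCC3 untested. Limits set by depth could not be computed, since no counts were at hand.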

Other observations

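TAP1 is an ABC gene under another symbol. It encodes a subunit of the peptide transporter that loads antigen onto major histocompatibility complex class I molecules in the endoplasmic reticulum. It stood at 71.4 and 63.7 units in HS and at 33.8 and 45.2 units in drug-loaded MNs. Both drug-loaded MNs libraries were below both HS libraries, and the log2 fold change was -0.77 (95% interval -1.34 to -0.20, limma unadjusted p 0.0151, adjusted p 0.417). PSMB8 and PSMB9, subunits of the immunoproteasome that makes such peptides, had log2 fold changes of -0.42 and -0.46. PSMB8 stood at 106 and 62.3 units in HS and at 54.7 and 67.2 units in drug-loaded MNs, with overlapping groups. PSMB9 stood at 127.6 and 78.7 units in HS and at 71.7 and 73.7 units in drug-loaded MNs, below both HS libraries. Of 12 listed genes of peptide loading, 9 were found by symbol and tested, and TAP2 was among those not found. In limma 1 of the 9 was lower at an unadjusted p under 0.05, where 1.39% of all genes were, and 0 were higher. The median of the list was 0.03. CFTR, the chloride channel of the ABC family, stood at 1.82 and 1.77 units in HS and at 2.11 and 1.41 units in drug-loaded MNs, with overlapping groups.

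The median absolute gap between libraries of the same group, over the 19 tested ABC genes, was 0.34 on the log2 scale for HS and 0.17 for drug-loaded MNs. Over all genes the same medians were 0.33 and 0.23.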
